A study of Mus musculus with 9 samples.

Results

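The ear samples held RNA of skeletal muscle, whose contractile genes can be followed in RNA of the whole ear. The account covers 44 genes of the sarcomere, of calcium handling and of energy supply in skeletal muscle, taken from a fixed list of names, and all 44 were found among the 54838 genes of the count matrix. RNA was read near the 3′ end of each transcript (3′ tag RNA sequencing) in ears of C57BL/6 mice aged 10 weeks. The Mdl-1-/- IL-23 group was Mdl-1-/- mice given 15 µg of minicircle DNA (a small DNA circle) for interleukin 23 (IL-23) by hydrodynamic tail vein injection. The WT IL-23 group was wild-type mice given the same dose of that DNA, and the WT GFP group was wild-type mice given the same dose of minicircle DNA for green fluorescent protein (GFP). Each group had 3 libraries. Mdl-1-/- mice given the GFP minicircle were not analysed here, so an effect of the genotype without IL-23 cannot be told apart from one under IL-23. The labels number the libraries of a group and do not say whether they stand for separate animals; if they do not, p-values reflect technical spread alone.

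A skeletal muscle fibre shortens when myosin of the thick filament pulls on actin of the thin filament, and calcium released from the sarcoplasmic reticulum switches this on through troponin and tropomyosin. Each fibre carries a slow or a fast set of these proteins, and among fast fibres those with Myh4 are the fastest, those with Myh2 the slowest and those with Myh1 lie between them. In the outer ear, small muscles move or brace the cartilage. IL-23 is a cytokine that drives inflammation of the skin, and MDL-1 is a receptor of myeloid cells encoded by Clec5a.

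The libraries held 4181883 to 4692900 counts in Mdl-1-/- IL-23 ears, 3776188 to 5096457 in WT IL-23 ears and 4759464 to 5605713 in WT GFP ears. The labels state a mean of 600000 reads for a sample, which is below these totals; the reason is not given in the sources used here, and counts and intervals take the tables as deposited. Clec5a, the targeted gene, was read 10, 13 and 5 times in Mdl-1-/- IL-23 libraries 1 to 3, 17, 21 and 11 times in WT IL-23 libraries and 2, 7 and 10 times in WT GFP libraries. In CPM (counts put on a common total of 1000000, with edgeR's TMM factors) it was at 1.20 to 2.97 in Mdl-1-/- IL-23 libraries, 3.64 to 4.6 in WT IL-23 libraries and 0.348 to 1.55 in WT GFP libraries. The Mdl-1-/- IL-23 libraries lay below all WT IL-23 libraries on that scale and overlapped with the WT GFP libraries, and their reads were not at 0; which bases the allele removes was not given in the sources used here. Mitochondrial genes took 11.4% to 12.9% of the counts in Mdl-1-/- IL-23 libraries, 8.69% to 8.99% in WT IL-23 libraries and 12.6% to 15.1% in WT GFP libraries.

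The 44 genes together took a smaller share of the RNA in every WT IL-23 library than in any WT GFP library. The summed share of all counts was 0.114%, 0.140% and 0.353% in Mdl-1-/- IL-23 libraries 1 to 3. In WT IL-23 libraries 1 to 3 it was 0.142%, 0.153% and 0.143%, and in WT GFP libraries 1 to 3 it was 0.570%, 0.310% and 0.461%. Mdl-1-/- IL-23 library 3 stood apart from the other 2 libraries of its group and lay above WT GFP library 2, with Wilson 95% intervals of 0.347% to 0.359% and 0.305% to 0.315%. The means were 0.202% ± 0.131 in Mdl-1-/- IL-23 ears, 0.146% ± 0.00580 in WT IL-23 ears and 0.447% ± 0.131 in WT GFP ears (SD, n = 3 each). WT IL-23 and WT GFP ears did not overlap, and the two-sided exact permutation p was 0.1, the smallest that 3 against 3 allows. Mdl-1-/- IL-23 ears overlapped with WT IL-23 ears (exact permutation p = 1.0) and with WT GFP ears (exact permutation p = 0.2). In bulk RNA of an ear, fewer muscle fibres and less of this RNA per fibre cannot be told apart. A share of all counts also falls with more RNA of other cells or with less muscle in a sample. These cannot be told apart from the former either.

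**Figure D1:**
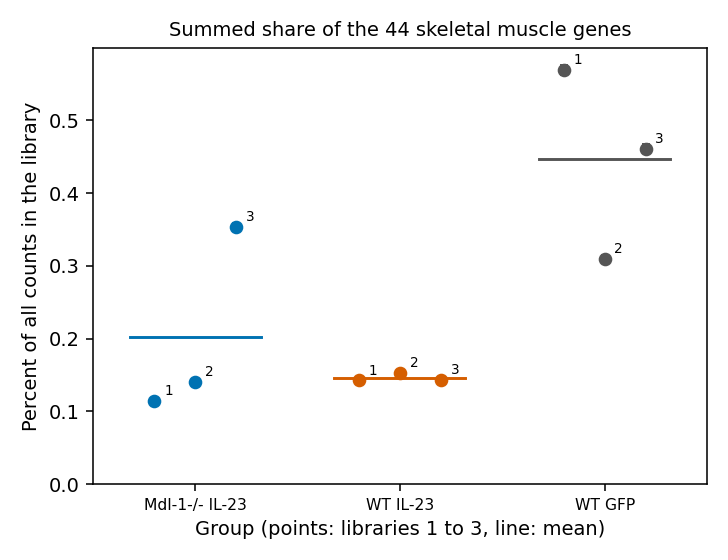
Percent of all counts in each library (vertical axis) taken by the 44 skeletal muscle genes, by group (horizontal axis), with libraries numbered and a line at each group mean; bars are Wilson 95% intervals, mostly hidden by the points. The WT IL-23 libraries sit together near 0.146%, and Mdl-1-/- IL-23 library 3 sits at 0.353%, between the WT GFP libraries.

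Library 3 of the Mdl-1-/- IL-23 group was high across the whole list. Of the 38 genes that passed the count filter and were tested, 38 were highest in that library within their group, and the median ratio of its CPM to that of library 1 was 3.24. Within WT GFP ears 35 of the 38 were lowest in library 2. The median ratio of the highest to the lowest library was 3.28 in Mdl-1-/- IL-23 ears, 1.46 in WT IL-23 ears and 1.97 in WT GFP ears. The filter left out 6 genes. Myh7, the slow myosin heavy chain, had 70 counts over the 9 libraries, Mybpc2, a fast myosin-binding protein C, had 78, and Tnni1, slow troponin I, had 71. Tnnc2, fast troponin C, had 1 count, Cacna1s, the pore subunit of the voltage sensor, had 7, and Mb, myoglobin, had 19. Tnnc2, Cacna1s and Mb share most of their last 500 exonic bases with exons of genes on the opposite strand (94.2%, 100% and 82.4%), and the part of this in their low counts was not tested. Of the 38, 31 had at least 10 counts in every library and 2, Cacng1 and Ampd1, had that in WT GFP ears alone, so they passed through the group where they were high.

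**Figure D2:**
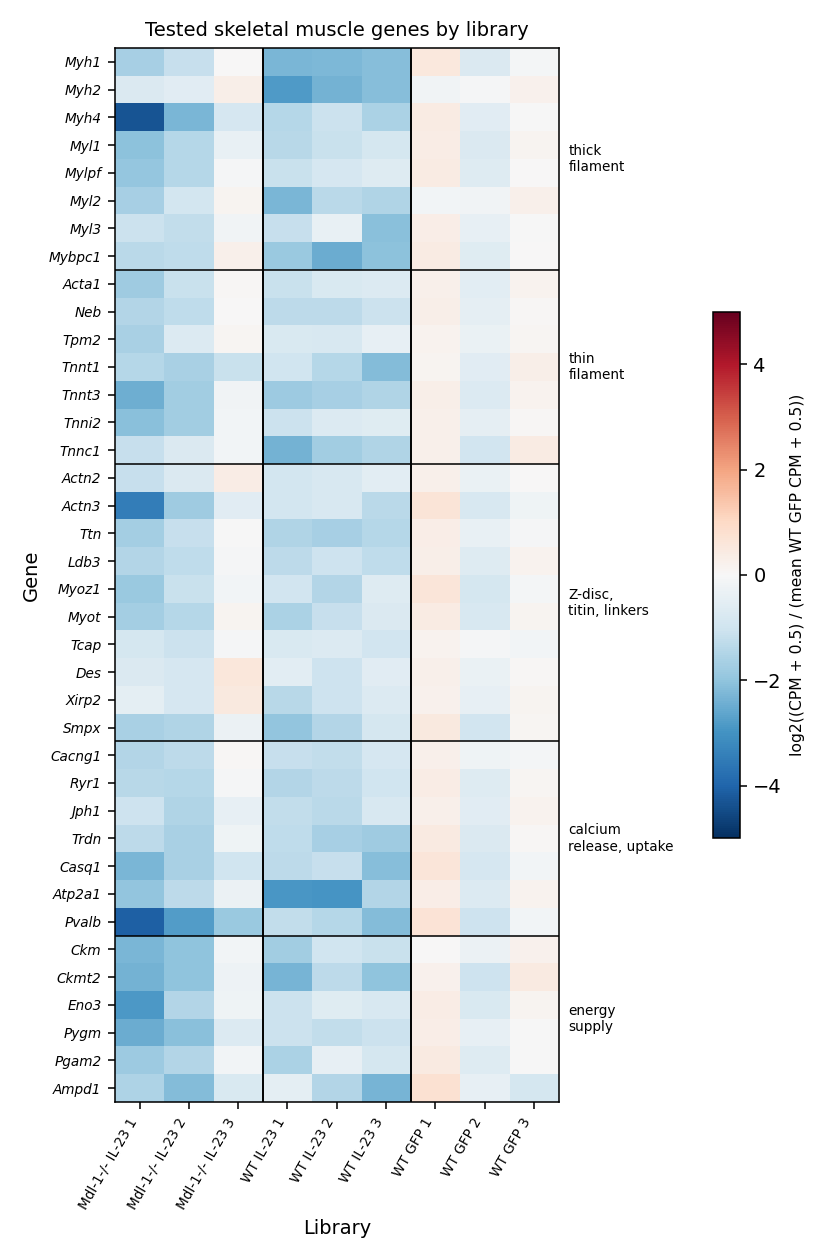
Level of the 38 tested genes (rows, grouped by role) in each library (columns), as log2 of CPM plus 0.5 over the mean WT GFP CPM plus 0.5. Blue is below and red above the WT GFP mean; the column of Mdl-1-/- IL-23 library 3 is paler than those of libraries 1 and 2 of its group.

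A gene was called where its adjusted p in edgeR's quasi-likelihood test over all 13807 tested genes was under 0.05. In Mdl-1-/- IL-23 against WT IL-23 ears, 1 of the 38 tested genes was called higher, Myh2, where 7.58% of all tested genes were called higher. None was called lower, where 10.1% of all were; edgeR gave 0 lower genes at an unadjusted p under 0.05 too, DESeq2 called 0 and limma voom called 0. In WT IL-23 against WT GFP ears 19 were called lower, 18 without Cacng1, where 21.7% of all tested genes were. None was called higher, where 22.9% of all were; 0 were higher at an unadjusted p under 0.05, and DESeq2 and limma voom called 0. Against WT GFP ears, Mdl-1-/- IL-23 ears had 5 called lower, where 6.93% of all tested genes were. None was called higher, where 10.2% of all were, with 0 at an unadjusted p under 0.05 and 0 by DESeq2 and limma voom. The comparisons share groups (each group serves in 2 of them), so their counts are not independent of each other.

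The log2 fold changes of the 38 had a median of 0.31 in Mdl-1-/- IL-23 against WT IL-23 ears, with 27 above 0 and 11 below. They had a median of -1.24 in WT IL-23 against WT GFP ears and -0.93 in Mdl-1-/- IL-23 against WT GFP ears, and all 38 were below 0 in both. Over all tested genes the medians were 0.00, -0.04 and -0.02 in the same order of comparisons. Under upper-quartile scaling the split of all genes in WT IL-23 against WT GFP ears became 17.9% higher and 28.1% lower, and the median moved to -0.20. In Mdl-1-/- IL-23 against WT GFP ears that scaling gave 8.02% higher and 10.3% lower, and in Mdl-1-/- IL-23 against WT IL-23 ears 9.55% higher and 8.41% lower. It called 24, 6 and 1 muscle genes in these comparisons, in that order, with directions as above. Without Mdl-1-/- IL-23 library 3, 3 muscle genes were called in Mdl-1-/- IL-23 against WT IL-23 ears (Myh2 higher, Pygm and Tnni2 lower), 35 were called lower in WT IL-23 against WT GFP ears and 33 were called lower in Mdl-1-/- IL-23 against WT GFP ears. Of all genes tested without that library, 4.48% were called higher and 5.05% lower in Mdl-1-/- IL-23 against WT IL-23 ears, 21.3% lower in WT IL-23 against WT GFP ears and 4.75% lower in Mdl-1-/- IL-23 against WT GFP ears. Counted among these were Mybpc2 and Tnni1, lower in WT IL-23 against WT GFP ears, and Myh7, lower in Mdl-1-/- IL-23 against WT GFP ears. Mybpc2, Tnni1 and Myh7 passed the count filter there through the WT GFP libraries, where they were high, so their calls are descriptions. The mean muscle share in Mdl-1-/- IL-23 ears minus that in WT IL-23 ears was 0.0561 percentage points with all libraries and -0.0192 without that library.

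**Figure D3:**
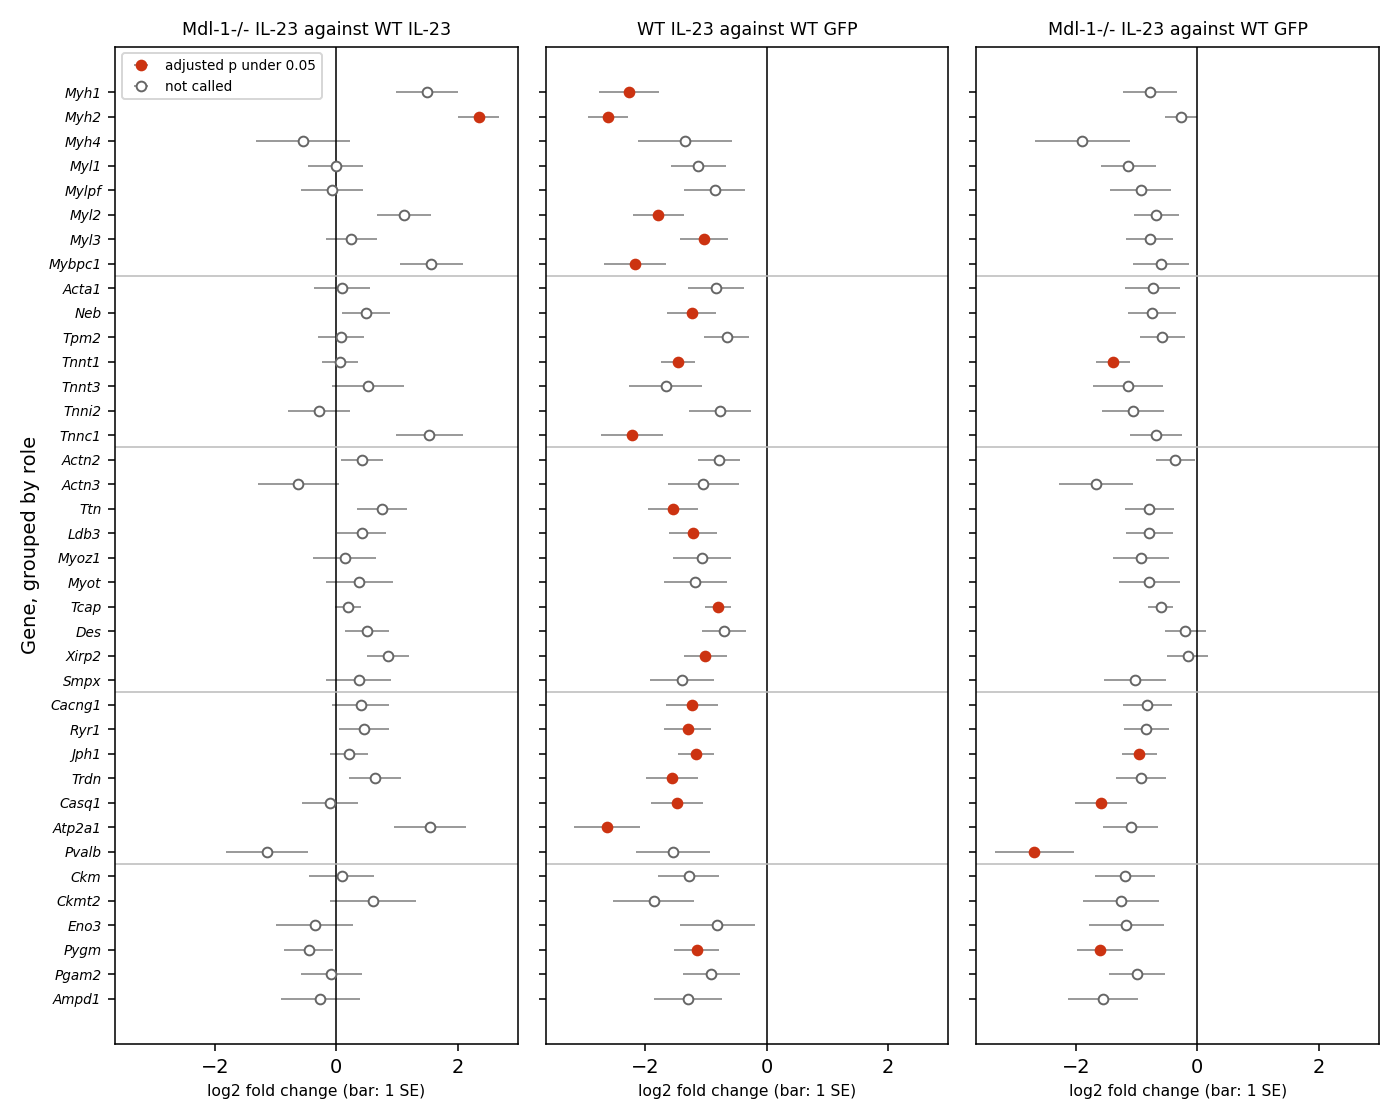
Log2 fold changes (horizontal axis) of the 38 tested genes (vertical axis, grouped by role) in the 3 comparisons, with bars of 1 standard error and filled points for adjusted p under 0.05. All points lie below 0 in both comparisons with WT GFP ears, with 19 and 5 of them called, and Myh2 alone is called in Mdl-1-/- IL-23 against WT IL-23 ears.

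The thick filament genes held the one difference called between the genotypes under IL-23. Myh2, Myh1 and Myh4 encode the 3 fast heavy chains of adult limb and body muscle. They lie next to each other on the plus strand of chromosome 11 (GRCm38), Myh2 at chr11:67171027-67197517, Myh1 at chr11:67200052-67224575 and Myh4 at chr11:67238029-67260446. Their promoters are shown because these neighbours differed in their values below. For Myh1 and Myh4 the RefSeq start is not at the gene start given above, and motif distances are counted from the RefSeq start. Each line gives the 250 bases before the RefSeq transcription start on GRCm38.p6, 5′ to 3′ on the plus strand, at chr11:67170777-67171026, chr11:67199852-67200101 and chr11:67237562-67237811, with capitals for matches on either strand to the motifs named after them.
Myh2: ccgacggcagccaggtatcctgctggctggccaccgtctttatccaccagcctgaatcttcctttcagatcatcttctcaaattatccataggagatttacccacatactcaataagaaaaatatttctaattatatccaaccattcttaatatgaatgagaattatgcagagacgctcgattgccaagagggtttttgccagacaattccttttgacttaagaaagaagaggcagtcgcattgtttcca
Myh1: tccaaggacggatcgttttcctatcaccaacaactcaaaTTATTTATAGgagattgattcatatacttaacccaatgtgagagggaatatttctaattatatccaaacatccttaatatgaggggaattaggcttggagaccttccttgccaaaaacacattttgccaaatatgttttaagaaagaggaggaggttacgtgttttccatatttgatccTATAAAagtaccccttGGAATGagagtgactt
Myh4: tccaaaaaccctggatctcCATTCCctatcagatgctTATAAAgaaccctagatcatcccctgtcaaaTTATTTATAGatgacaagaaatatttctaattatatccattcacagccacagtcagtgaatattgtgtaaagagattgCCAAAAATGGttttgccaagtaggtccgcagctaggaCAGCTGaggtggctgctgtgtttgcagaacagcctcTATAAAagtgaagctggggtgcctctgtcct
The motifs searched were the E-box CAGCTG, a site of myogenic factors such as MyoD, the TATA box TATAAA, the MCAT element CATTCC, the CArG box and the MEF2 site, the last 2 by their usual consensus. Myh4 held an E-box starting 67 bases before the start, a CArG box at 104, a MEF2 site at 182, an MCAT element at 231 and TATA boxes at 31, 179 and 213. Myh1 held an MCAT element at 16, TATA boxes at 32 and 208 and a MEF2 site at 211, of which the last 2 overlap, as do the MEF2 site and the TATA box at 179 in Myh4. The TATA matches at 208 in Myh1 and 179 in Myh4 lie inside the MEF2 sites and read TATAAA on the minus strand only. The MCAT match of Myh1 is on the minus strand too. Myh2 held none of the motifs in the letters shown, and a TATA box beginning at base 11 of its transcript, counted from 1 at the start.

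Of the 44 genes, 33 had a promoter in the RefSeq table (250 bases before to 50 after the start). In this window the E-box was found in 18 of the 33 (54.5%) and in 18.3% of 27025 genes, and the MCAT element in 12 (36.4%) and in 16.6% of all. The MEF2 site was found in 6 (18.2%) and in 3.70% of all, the CArG box in 4 (12.1%) and in 1.81% of all, and the TATA box in 7 (21.2%), Myh2 among them, and in 15.7% of all. A match describes letters and is not evidence that a factor binds there.

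Myh2, the heavy chain of the slowest fast fibres, was read 47, 51 and 92 times in Mdl-1-/- IL-23 libraries 1 to 3, 9, 14 and 11 times in WT IL-23 libraries and 90, 93 and 132 times in WT GFP libraries. The WT IL-23 libraries were low and overlapped with neither other group. Myh2 was higher in Mdl-1-/- IL-23 than in WT IL-23 ears by a log2 fold change of 2.35 (SE 0.34, adjusted p = 0.00107), and lower in WT IL-23 than in WT GFP ears by -2.62 (SE 0.33, adjusted p = 1.92e-05). Mdl-1-/- IL-23 and WT GFP ears overlapped, with 14.7 ± 6.35 and 17.7 ± 2.44 CPM (SD, n = 3 each) and a log2 difference of -0.27 (SE 0.27, adjusted p = 0.523). The difference between the genotypes stayed called without any 1 library, with a log2 fold change of 1.96 to 2.54 and an adjusted p of at most 0.00786. Of its last 500 exonic bases 47.4% lie in exons of an opposite-strand gene, 9430073C21Rik, which had 0 to 8 counts per library, and reads of the pair cannot be told apart without the strand setting.

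Myh1, the heavy chain of intermediate fast fibres, had 64, 89 and 194 counts in Mdl-1-/- IL-23 libraries, 40, 43 and 31 in WT IL-23 libraries and 390, 153 and 280 in WT GFP libraries. In CPM the WT IL-23 libraries lay below both other groups without overlap. Myh1 fell in WT IL-23 against WT GFP ears (log2 fold change -2.28, SE 0.50, adjusted p = 0.00634). Between Mdl-1-/- IL-23 and WT IL-23 ears the value was 1.49 (SE 0.51, adjusted p = 0.0791), which was not called. Myhas, on the opposite strand, takes in 51.8% of the last 500 exonic bases of Myh1 and had 0 to 2 counts per library.

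Myh4, the heavy chain of the fastest fibres, was called in none of the comparisons. Its counts were 80, 331 and 851 in Mdl-1-/- IL-23 libraries, 597, 802 and 369 in WT IL-23 libraries and 2845, 1362 and 2341 in WT GFP libraries. The Mdl-1-/- IL-23 libraries ran widely: in CPM library 3 lay above every WT IL-23 library and libraries 1 and 2 lay below them. Both IL-23 groups lay below every WT GFP library. The log2 fold change was -0.55 (SE 0.77, adjusted p = 0.676) in Mdl-1-/- IL-23 against WT IL-23 ears, -1.35 (SE 0.77, adjusted p = 0.202) in WT IL-23 against WT GFP ears and -1.90 (SE 0.78, adjusted p = 0.157) in Mdl-1-/- IL-23 against WT GFP ears.

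Among the other thick filament genes, Mybpc1, a myosin-binding protein C of slow and some fast fibres, was read 96, 99 and 273 times in Mdl-1-/- IL-23 libraries, 64, 43 and 39 times in WT IL-23 libraries and 427, 195 and 357 times in WT GFP libraries. It followed the order of Myh1, with no overlap of the WT IL-23 libraries with either other group. It fell in WT IL-23 against WT GFP ears (log2 fold change -2.17, SE 0.51, adjusted p = 0.0101) and was not called between the genotypes (1.57, SE 0.52, adjusted p = 0.0752). Myl2, the slow regulatory light chain, had 17, 29 and 60 counts in Mdl-1-/- IL-23 libraries, 10, 22 and 13 in WT IL-23 libraries and 68, 63 and 103 in WT GFP libraries. Its WT IL-23 libraries lay below all WT GFP libraries, and it fell by 1.79 on the log2 scale (SE 0.42, adjusted p = 0.00344).

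Myl3, a slow essential light chain, had 29, 25 and 53 counts in Mdl-1-/- IL-23 libraries, 27, 50 and 9 in WT IL-23 libraries and 105, 57 and 91 in WT GFP libraries. WT IL-23 library 3 was low, WT IL-23 library 2 overlapped with the WT GFP range, and the fall of 1.04 on the log2 scale had an adjusted p of 0.0461. That call ended without Mdl-1-/- IL-23 library 1, WT IL-23 library 1 or 3, or WT GFP library 1 or 3, with adjusted p of 0.0517 to 0.154. Mylpf, the fast regulatory light chain, had 189, 265 and 654 counts in Mdl-1-/- IL-23 libraries, 335, 420 and 314 in WT IL-23 libraries and 1269, 580 and 1079 in WT GFP libraries. All WT IL-23 libraries lay below the WT GFP group, and the difference was not called (log2 -0.86, SE 0.50, adjusted p = 0.205). Myl1, the fast essential light chain, was at -1.13 in that comparison and was not called either. In all, 8 of the 10 thick filament genes were tested, and 5 fell in WT IL-23 against WT GFP ears, 0 in Mdl-1-/- IL-23 against WT GFP ears.

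Of the 9 thin filament genes listed, 7 were tested, and Neb, Tnnt1 and Tnnc1 fell in WT IL-23 against WT GFP ears. Tnnt1 was also called in Mdl-1-/- IL-23 against WT GFP ears. Tnnt1, the slow troponin T that ties troponin to tropomyosin, was read 69, 58 and 81 times in Mdl-1-/- IL-23 libraries, 91, 70 and 27 times in WT IL-23 libraries and 265, 153 and 337 times in WT GFP libraries. Both IL-23 groups lay below every WT GFP library. Tnnt1 fell in WT IL-23 against WT GFP ears (log2 fold change -1.46, SE 0.28, adjusted p = 0.000991) and in Mdl-1-/- IL-23 against WT GFP ears (-1.40, SE 0.28, adjusted p = 0.00421). Both calls stayed without any 1 library, with adjusted p of at most 0.00795 and 0.029. Between the genotypes under IL-23 the log2 difference was 0.06 (SE 0.30, adjusted p = 0.912).

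Tnnc1, the slow troponin C that binds calcium, had 10, 14 and 21 counts in Mdl-1-/- IL-23 libraries, 3, 6 and 5 in WT IL-23 libraries and 38, 14 and 48 in WT GFP libraries. The WT IL-23 libraries were lowest and overlapped with neither other group. Tnnc1 fell in WT IL-23 against WT GFP ears by 2.21 on the log2 scale (SE 0.51, adjusted p = 0.00252) and was at 1.54 (SE 0.55, adjusted p = 0.0629) between the genotypes, not called.

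Neb, which encodes nebulin along the length of the thin filament, had 602, 669 and 1574 counts in Mdl-1-/- IL-23 libraries, 648, 676 and 533 in WT IL-23 libraries and 2640, 1486 and 2477 in WT GFP libraries. The WT IL-23 libraries lay close together and below all WT GFP libraries. Neb fell there by 1.24 on the log2 scale (SE 0.40, adjusted p = 0.0361), a call that ended without WT IL-23 library 1, 2 or 3 or WT GFP library 1 or 3, with adjusted p of 0.0799 to 0.111. Acta1, skeletal muscle actin, had 433, 686 and 1465 counts in Mdl-1-/- IL-23 libraries, 672, 909 and 637 in WT IL-23 libraries and 2281, 1275 and 2445 in WT GFP libraries. WT IL-23 and WT GFP ears did not overlap in CPM, and the log2 difference was -0.84 (SE 0.46, adjusted p = 0.182), not called. Tpm2, a tropomyosin, was at -0.66, Tnnt3, fast troponin T, at -1.67 and Tnni2, fast troponin I, at -0.77 in WT IL-23 against WT GFP ears, none of them called; Acta1 and these 3 genes were called in a fit of only the 2 groups.

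At the Z-disc, where thin filaments of neighbouring sarcomeres are anchored, all 10 listed genes were tested, and Ttn, Ldb3, Tcap and Xirp2 fell in WT IL-23 against WT GFP ears, while none was called in the other comparisons. Tcap, which caps titin at the Z-disc, was read 286, 245 and 464 times in Mdl-1-/- IL-23 libraries, 299, 330 and 182 times in WT IL-23 libraries and 769, 607 and 688 times in WT GFP libraries. Every WT IL-23 library was below every WT GFP library. Tcap fell by 0.80 on the log2 scale (SE 0.21, adjusted p = 0.00695), and the call stayed without any 1 library, with adjusted p of at most 0.0351.

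Ttn, which encodes titin, the spring from Z-disc to thick filament, had 1039, 1487 and 3109 counts in Mdl-1-/- IL-23 libraries, 1155, 1088 and 846 in WT IL-23 libraries and 5520, 3170 and 4783 in WT GFP libraries. Its levels were 439 ± 270 CPM in Mdl-1-/- IL-23 ears, 261 ± 21.02 CPM in WT IL-23 ears and 761 ± 190 CPM in WT GFP ears (SD, n = 3 each), and the WT IL-23 and WT GFP ears did not overlap. Ttn fell in WT IL-23 against WT GFP ears by a log2 fold change of -1.54 (SE 0.41, adjusted p = 0.0187), which ended without WT IL-23 library 1, 2 or 3 or WT GFP library 1, with adjusted p of 0.0557 to 0.0662.

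Xirp2, an actin-binding protein of muscle cell junctions, had 537, 404 and 977 counts in Mdl-1-/- IL-23 libraries, 276, 368 and 315 in WT IL-23 libraries and 1102, 682 and 1178 in WT GFP libraries. The Mdl-1-/- IL-23 libraries overlapped with both other groups, and those groups did not overlap with each other. Xirp2 fell in WT IL-23 against WT GFP ears by a log2 fold change of -1.02 (SE 0.35, adjusted p = 0.0436), a call that ended without Mdl-1-/- IL-23 library 1, any of the WT IL-23 libraries or WT GFP library 1 or 3, with adjusted p of 0.051 to 0.138. In Mdl-1-/- IL-23 against WT GFP ears it was at -0.16 (SE 0.34, adjusted p = 0.792). Ldb3, a Z-disc protein that binds alpha-actinin, had 103, 114 and 259 counts in Mdl-1-/- IL-23 libraries, 110, 142 and 80 in WT IL-23 libraries and 455, 219 and 467 in WT GFP libraries. WT IL-23 and WT GFP ears did not overlap, and the fall of 1.21 on the log2 scale (SE 0.40, adjusted p = 0.0348) ended without any of the WT IL-23 libraries or WT GFP library 1 or 3, with adjusted p of 0.0694 to 0.118. The remaining members are the alpha-actinins Actn2 and Actn3, the Z-disc proteins Myoz1 and Myot, the intermediate filament desmin (Des) and Smpx, a small muscle protein of the X chromosome. They had log2 fold changes of -1.40 (Smpx) to -0.71 (Des) in WT IL-23 against WT GFP ears, none called.

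Of the 8 calcium genes listed, 7 were tested, 6 fell (5 without Cacng1) in WT IL-23 against WT GFP ears and 3 in Mdl-1-/- IL-23 against WT GFP ears. Atp2a1, the calcium pump of fast fibres that refills the reticulum, had 12, 20 and 40 counts in Mdl-1-/- IL-23 libraries, 5, 5 and 12 in WT IL-23 libraries and 86, 39 and 88 in WT GFP libraries. WT IL-23 libraries 1 and 2 were lowest of all, and WT IL-23 and WT GFP ears did not overlap. Atp2a1 fell there by 2.64 on the log2 scale (SE 0.54, adjusted p = 0.00178), and without any 1 library the adjusted p was at most 0.0139. The exons of Rabep2, read 7 to 28 times per library on the opposite strand, take in 53.8% of its last 500 exonic bases, and the part of these reads in the result was not tested.

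Jph1, which holds the reticulum against the surface membrane, had 46, 32 and 68 counts in Mdl-1-/- IL-23 libraries, 40, 38 and 37 in WT IL-23 libraries and 149, 80 and 162 in WT GFP libraries. WT IL-23 ears lay below WT GFP ears, and Mdl-1-/- IL-23 library 3 overlapped with the WT GFP range in CPM. Jph1 fell in WT IL-23 against WT GFP ears (log2 fold change -1.16, SE 0.29, adjusted p = 0.00471, at most 0.0297 without any 1 library). It also fell in Mdl-1-/- IL-23 against WT GFP ears (-0.96, SE 0.29, adjusted p = 0.0292), where the call ended without Mdl-1-/- IL-23 library 1 or 2 or WT GFP library 1 or 3, with adjusted p of 0.0787 to 0.147.

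Casq1, the calcium store protein calsequestrin of fast fibres, had 34, 55 and 81 counts in Mdl-1-/- IL-23 libraries, 68, 79 and 26 in WT IL-23 libraries and 345, 120 and 234 in WT GFP libraries. Both IL-23 groups lay below all WT GFP libraries in CPM. It fell by 1.48 (SE 0.43, adjusted p = 0.0197) in WT IL-23 ears and by 1.58 (SE 0.43, adjusted p = 0.0328) in Mdl-1-/- IL-23 ears, both on the log2 scale against WT GFP ears. The WT IL-23 call ended without WT IL-23 library 1 or 3 (adjusted p = 0.0578 and 0.0727), and the Mdl-1-/- IL-23 call ended without Mdl-1-/- IL-23 library 1 or 2, WT IL-23 library 1 or WT GFP library 1 or 3, with adjusted p of 0.0603 to 0.126.

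Trdn encodes triadin, which links calsequestrin to the release channel, and was read 193, 152 and 383 times in Mdl-1-/- IL-23 libraries, 192, 153 and 94 times in WT IL-23 libraries and 846, 351 and 718 times in WT GFP libraries. The WT IL-23 libraries lay below all WT GFP libraries. Trdn fell there by 1.57 on the log2 scale (SE 0.43, adjusted p = 0.0192), which ended without WT IL-23 library 2 or 3 (adjusted p = 0.062 and 0.0818). Ryr1, the release channel itself, had 34, 32 and 83 counts in Mdl-1-/- IL-23 libraries, 31, 37 and 31 in WT IL-23 libraries and 155, 71 and 143 in WT GFP libraries. Its WT IL-23 counts were nearly even and below the WT GFP range. Ryr1 fell there by 1.30 on the log2 scale (SE 0.39, adjusted p = 0.0158), which ended without WT IL-23 library 1 or 2 or WT GFP library 1, with adjusted p of 0.051 to 0.0677. Cacng1, a subunit of the voltage sensor, had 8, 9 and 25 counts in Mdl-1-/- IL-23 libraries, 10, 10 and 9 in WT IL-23 libraries and 40, 27 and 35 in WT GFP libraries. WT IL-23 and WT GFP ears did not overlap, and Cacng1 fell by 1.23 on the log2 scale (SE 0.43, adjusted p = 0.0287), which ended without WT IL-23 library 1 or 2 or WT GFP library 1 or 3, with adjusted p of 0.0552 to 0.0965. It passed the count filter through the WT GFP libraries, where it was high, so its call is a description.

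Pvalb, the calcium buffer parvalbumin of the fastest fibres, had 19, 48 and 91 counts in Mdl-1-/- IL-23 libraries, 147, 135 and 52 in WT IL-23 libraries and 729, 208 and 471 in WT GFP libraries. In CPM the Mdl-1-/- IL-23 and WT GFP groups did not overlap, while the IL-23 groups did. Pvalb fell in Mdl-1-/- IL-23 against WT GFP ears by 2.69 on the log2 scale (SE 0.65, adjusted p = 0.0320). That call ended without Mdl-1-/- IL-23 library 1 or 2, WT IL-23 library 1 or 2 or WT GFP library 1 or 3, with adjusted p of 0.0513 to 0.117. In WT IL-23 against WT GFP ears the value was -1.55 (SE 0.60, adjusted p = 0.0773), and between the genotypes under IL-23 it was -1.15 (SE 0.67, adjusted p = 0.287), neither called.

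Of the 7 energy supply genes listed, 6 were tested, and Pygm was the only one called. Pygm, the muscle glycogen phosphorylase that releases glucose from glycogen, had 19, 25 and 66 counts in Mdl-1-/- IL-23 libraries, 53, 49 and 37 in WT IL-23 libraries and 189, 106 and 166 in WT GFP libraries. Both IL-23 groups lay below all WT GFP libraries in CPM. It fell by 1.61 on the log2 scale in Mdl-1-/- IL-23 against WT GFP ears (SE 0.38, adjusted p = 0.0122), which ended without Mdl-1-/- IL-23 library 2 (adjusted p = 0.0591). It fell by 1.16 in WT IL-23 against WT GFP ears (SE 0.37, adjusted p = 0.0229), which ended without any of the WT IL-23 libraries or WT GFP library 1 or 3, with adjusted p of 0.054 to 0.0847.

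Eno3, the muscle enolase of glycolysis, had 41, 110 and 255 counts in Mdl-1-/- IL-23 libraries, 146, 215 and 124 in WT IL-23 libraries and 530, 230 and 511 in WT GFP libraries. The groups overlapped in every comparison, with log2 values of -0.36, -0.81 and -1.17 in Mdl-1-/- IL-23 against WT IL-23, WT IL-23 against WT GFP and Mdl-1-/- IL-23 against WT GFP ears. Ckmt2, the mitochondrial creatine kinase, had 23, 29 and 100 counts in Mdl-1-/- IL-23 libraries, 23, 51 and 20 in WT IL-23 libraries and 189, 74 and 249 in WT GFP libraries. WT IL-23 and WT GFP ears did not overlap, and the log2 difference was -1.87 (SE 0.66, adjusted p = 0.0536), not called. Ckm, the cytosolic creatine kinase of muscle, Pgam2, a phosphoglycerate mutase, and Ampd1, which deaminates AMP, were at -1.29, -0.91 and -1.30 in that comparison, none called.

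The make-up of the muscle RNA was compared next, as the share each gene took of the counts summed over a gene group. These shares were chosen after their values were seen. They can still follow the amount of muscle RNA in a library. In Mdl-1-/- IL-23 libraries 1 to 3 the summed muscle share (0.114%, 0.140% and 0.353%) and the Myh4 share given below both rose in that order. Between the wild-type groups these ran in opposite directions, and a link between them was not tested. Shares within a gene group compare the same gene between libraries and do not rank genes. Role shares of 1 library add up to the whole, so they are not independent. Among the adult myosin heavy chains Myh1, Myh2, Myh4 and Myh7, Myh4 took 41.9%, 70.1% and 74.5% of the counts in Mdl-1-/- IL-23 libraries 1 to 3. It took 91.8%, 92.4% and 89.6% in WT IL-23 libraries and 85.3%, 84.1% and 84.2% in WT GFP libraries. No Mdl-1-/- IL-23 library reached the range of either wild-type group, and the WT IL-23 libraries all lay above the WT GFP libraries. The lowest library, Mdl-1-/- IL-23 1, rests on 191 counts and had a Wilson 95% interval of 35.1% to 49.0%.

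Means of the Myh4 share were 62.2% ± 17.7 in Mdl-1-/- IL-23 ears, 91.3% ± 1.502 in WT IL-23 ears and 84.5% ± 0.706 in WT GFP ears (SD, n = 3 each). Each pair of groups was without overlap at a two-sided exact permutation p of 0.1, the smallest the design allows, and 0.305 after Benjamini-Hochberg adjustment over 174 share tests. Myh1 took 33.5%, 18.9% and 17.0% in Mdl-1-/- IL-23 libraries, 6.15%, 4.95% and 7.52% in WT IL-23 libraries and 11.7%, 9.44% and 10.1% in WT GFP libraries. Myh2 took 24.6%, 10.8% and 8.06% in Mdl-1-/- IL-23 libraries, 1.39%, 1.61% and 2.67% in WT IL-23 libraries and 2.699%, 5.74% and 4.75% in WT GFP libraries. For both genes all Mdl-1-/- IL-23 libraries lay above, and all WT IL-23 libraries below, the WT GFP libraries (exact permutation p = 0.1 each, 0.305 adjusted). For Myh2 the wild-type groups nearly met. WT IL-23 library 3 was at 2.67% on 11 Myh2 counts and WT GFP library 1 at 2.699% on 90, so that separation is within counting error. Leaving out single libraries kept the sign of the Myh4 differences, at -35.3 to -18.9 percentage points for Mdl-1-/- IL-23 minus WT IL-23 ears.

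**Figure D4:**
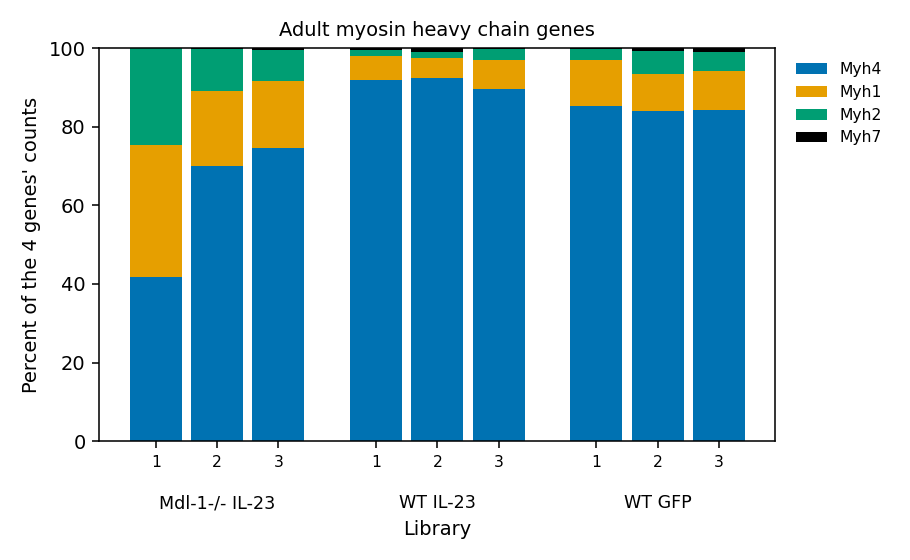
Share of the summed counts of 4 adult myosin heavy chain genes (vertical axis, percent) taken by each gene in each library (horizontal axis). Myh4 takes 41.9% to 74.5% in Mdl-1-/- IL-23 libraries, 89.6% to 92.4% in WT IL-23 libraries and 84.1% to 85.3% in WT GFP libraries.

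Measured against the summed count of all 44 genes, Myh2 took 0.923%, 0.776% and 0.623% in Mdl-1-/- IL-23 libraries, 0.134%, 0.180% and 0.203% in WT IL-23 libraries and 0.322%, 0.631% and 0.510% in WT GFP libraries. Mybpc1 took 1.51% to 1.89% in Mdl-1-/- IL-23 libraries, 0.552% to 0.956% in WT IL-23 libraries and 1.32% to 1.53% in WT GFP libraries. Both were lowest in WT IL-23 ears, without overlap with either other group. Tnni2 took 4.96% to 6.31% in Mdl-1-/- IL-23 libraries, 7.61% to 9.10% in WT IL-23 libraries and 6.12% to 6.75% in WT GFP libraries, so it was highest in WT IL-23 ears without overlap. Ttn took 20.4% to 22.6% in Mdl-1-/- IL-23 libraries, 14.0% to 17.2% in WT IL-23 libraries and 18.5% to 21.5% in WT GFP libraries. Pvalb took 0.373% to 0.730% in Mdl-1-/- IL-23 libraries, 0.961% to 2.19% in WT IL-23 libraries and 1.41% to 2.61% in WT GFP libraries, and Myh4 took 1.57% to 5.76%, 6.82% to 10.3% and 9.05% to 10.2% in the same groups. For these 2 genes the Mdl-1-/- IL-23 libraries lay below both wild-type groups, which overlapped with each other.

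**Figure D5:**
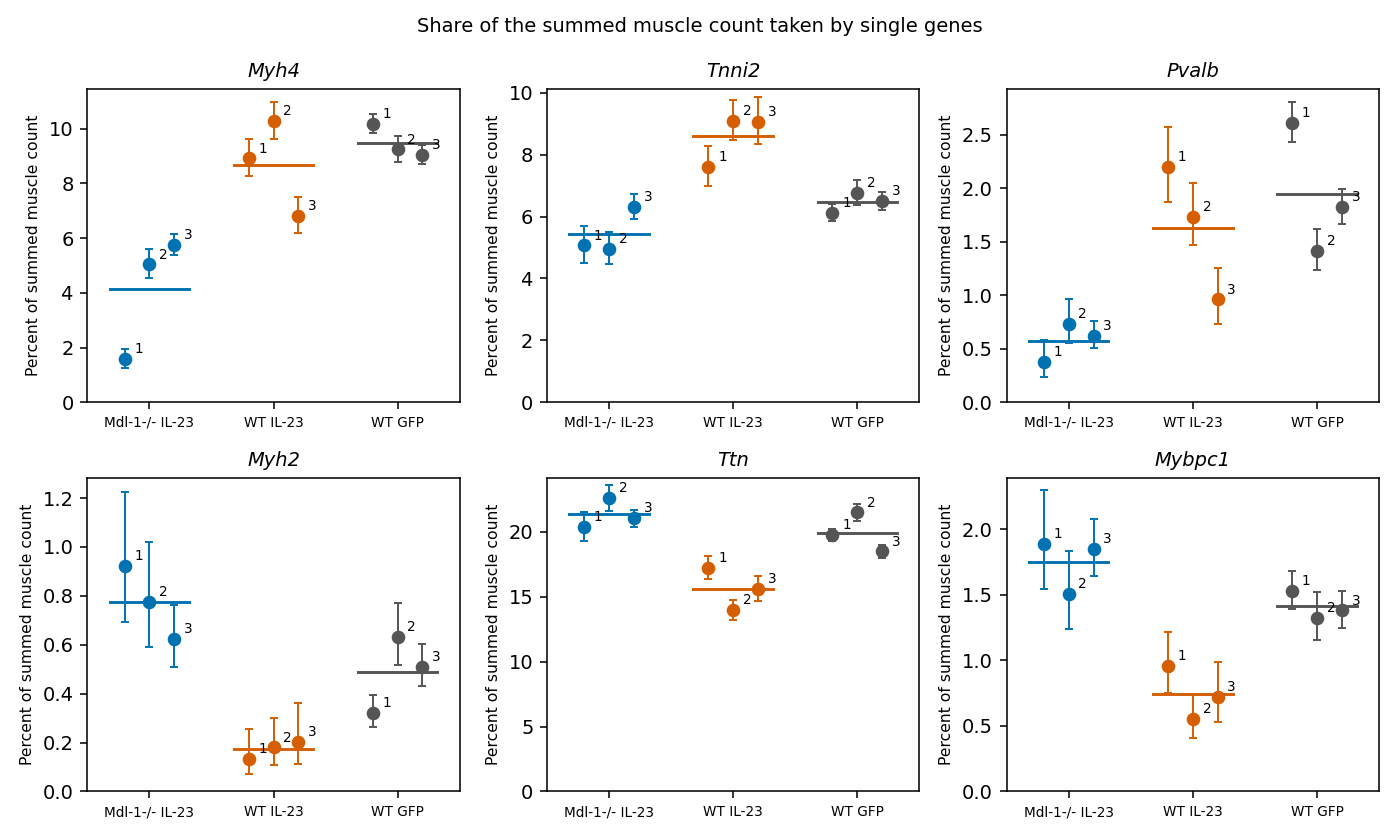
Share of the summed count of the 44 genes (vertical axes, percent) taken by 6 of them in each library, by group (horizontal axes), with Wilson 95% intervals and a line at each group mean. Myh4 and Pvalb are lowest in Mdl-1-/- IL-23 ears, Tnni2 is highest in WT IL-23 ears, and Myh2, Ttn and Mybpc1 are lowest in WT IL-23 ears.

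By role, Z-disc, titin and linker genes took 44.3%, 39.2% and 37.8% of the muscle counts in Mdl-1-/- IL-23 libraries, 32.1%, 29.2% and 32.3% in WT IL-23 libraries and 33.3%, 35.8% and 32.4% in WT GFP libraries. The Mdl-1-/- IL-23 libraries were highest in this sum and overlapped with neither wild-type group. A sum can follow 1 of its genes. Xirp2 had 537 of 5093, 404 of 6572 and 977 of 14765 muscle counts in Mdl-1-/- IL-23 libraries. In WT GFP libraries it had 1102 of 27955, 682 of 14736 and 1178 of 25861. Whether the sum stays apart from WT GFP ears without Xirp2 was not tested. Thick filament genes took 12.9% to 17.5% in Mdl-1-/- IL-23 libraries, 18.3% to 21.4% in WT IL-23 libraries and 19.9% to 21.97% in WT GFP libraries, lowest without overlap in Mdl-1-/- IL-23 ears. Each of these differences had an exact permutation p of 0.1 (0.305 adjusted over the 174 tests).

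An edgeR fit over all 13807 genes took the summed count of the 44 genes as library size and was added after the data were seen. Its standard errors differed from those of the main fit. In Mdl-1-/- IL-23 against WT IL-23 ears that of Tcap was 0.51 in place of 0.21 and that of Myh4 was 0.52 in place of 0.77. A gene that this fit did not call is not thereby shown to follow the muscle RNA as a whole. In Mdl-1-/- IL-23 against WT IL-23 ears 1 of the 38 was called, Myh2, with a log2 fold change of 2.16 (SE 0.59, adjusted p = 0.0309), where 0.507% of all genes were called higher and 0.652% lower. In WT IL-23 against WT GFP ears 1 was called, Myh2, at -1.496 (SE 0.58, adjusted p = 0.0290), where 0.775% of all were called lower and 40.8% higher. For Mdl-1-/- IL-23 against WT GFP ears 1 was called, Pvalb, at -1.75 (SE 0.53, adjusted p = 0.0101), where 0.109% of all were called lower and 35.8% higher. With single libraries left out, Myh2 kept its call between the genotypes without Mdl-1-/- IL-23 library 3 or WT GFP library 2 and lost it without each of the other 7, with adjusted p up to 0.345. Against WT GFP ears Myh2 lost it without WT IL-23 library 1, 2 or 3 or WT GFP library 2 or 3 (adjusted p up to 0.139), and Pvalb lost it without Mdl-1-/- IL-23 library 1 or WT GFP library 1 or 3 (adjusted p up to 0.114). The signs held in all of these fits.

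Slow and fast fibre genes were also set side by side. Of the 4 tested genes of slow fibres 4 fell in WT IL-23 against WT GFP ears, with a median log2 fold change of -1.63, and of the 12 tested genes of fast fibres 4 fell, with a median of -1.42. Between the genotypes under IL-23 the 4 slow genes were all above 0 with a median of 0.68 and none called, and 5 of the 12 fast genes were above 0, with a median of -0.04 and Myh2 called. The difference between these lists was not tested. The summed slow genes took a mean of 8.30% of the counts of both lists in Mdl-1-/- IL-23 ears, 4.94% in WT IL-23 ears and 6.10% in WT GFP ears, with exact permutation p of 0.3 to 0.4. Slow Tnni1 took 2.27%, 1.51% and 0.321% of the Tnni1 and Tnni2 counts in Mdl-1-/- IL-23 libraries, 0.391%, 0.700% and 0.203% in WT IL-23 libraries and 0.984%, 0.599% and 1.52% in WT GFP libraries. The groups overlapped, with exact permutation p of 0.3 for Mdl-1-/- IL-23 against WT IL-23, 0.2 for WT IL-23 against WT GFP and 0.7 for Mdl-1-/- IL-23 against WT GFP ears. Slow Tnnt1 took 37.5%, 23.9% and 13.3% of the Tnnt1 and Tnnt3 counts in Mdl-1-/- IL-23 libraries, 34.2%, 25.6% and 15% in WT IL-23 libraries and 20.8%, 23.9% and 24.2% in WT GFP libraries. In the troponin T pair the mean difference between groups ran the other way in 2 of the 3 comparisons, at -0.0609 percentage points for Mdl-1-/- IL-23 minus WT IL-23 ears and 1.98 for WT IL-23 minus WT GFP ears, where troponin I gave 0.937 and -0.604.

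Further muscle genes, listed with earlier results of these data known, moved in the same comparisons. The shares of all tested genes called in each comparison are those given for the listed genes above. Among the genes counted as falling in the lists below, Nrap, Lmod3, Clcn1, Myh8, Sgca and Lama2 had at least 10 counts in every library in WT GFP ears alone. That is the group where they were high, so their falls against it are descriptions. Of 20 other sarcomere genes 18 were tested: 10 fell in WT IL-23 against WT GFP ears and 3 rose in Mdl-1-/- IL-23 against WT IL-23 ears. Nrap, which helps assemble myofibrils, had 7, 7 and 19 counts in Mdl-1-/- IL-23 libraries, 1, 2 and 1 in WT IL-23 libraries and 23, 15 and 20 in WT GFP libraries. Its WT IL-23 counts were the lowest, and it rose between the genotypes under IL-23 (log2 2.84, SE 0.69, adjusted p = 0.0117), a call that ended without Mdl-1-/- IL-23 library 3 (adjusted p = 0.0649). Myoz2, a slow-fibre Z-disc protein, had 46, 26 and 61 counts in Mdl-1-/- IL-23 libraries, 5, 18 and 7 in WT IL-23 libraries and 76, 35 and 79 in WT GFP libraries, and rose between the genotypes by 2.03 (SE 0.45, adjusted p = 0.00886, at most 0.0367 without any 1 library). Lmod3, a nucleator of thin filaments, was the one of these genes that fell in Mdl-1-/- IL-23 against WT GFP ears (log2 -1.52, SE 0.46, adjusted p = 0.0333); the call ended without Mdl-1-/- IL-23 library 1 or 2 or WT GFP library 1 or 3, with adjusted p up to 0.138, and in a fit of only the 2 groups. Myom1, of the M-band at the centre of the sarcomere, fell in WT IL-23 against WT GFP ears by 1.25 on the log2 scale (adjusted p = 0.00620, at most 0.0352 without any 1 library).

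Of 14 other genes of calcium handling and excitation 11 were tested, 5 fell and 1 rose in WT IL-23 against WT GFP ears, and 3 fell in Mdl-1-/- IL-23 against WT GFP ears. Clcn1, the muscle chloride channel, had 3, 6 and 7 counts in Mdl-1-/- IL-23 libraries, 3, 1 and 0 in WT IL-23 libraries and 23, 14 and 27 in WT GFP libraries. Its call in Mdl-1-/- IL-23 against WT GFP ears ended with DESeq2, with the replicate block and without several single libraries (adjusted p up to 0.165). That of Cacna2d1, a calcium channel subunit, ended there without Mdl-1-/- IL-23 library 1 or 2 or WT GFP library 1 or 3 (adjusted p up to 0.0842). Atp2a2, the calcium pump of slow fibres and of many non-muscle cells, was the gene that rose (log2 0.495, SE 0.16, adjusted p = 0.0214), a call that ended without WT IL-23 library 3 or WT GFP library 2 (adjusted p up to 0.0936) and under upper-quartile scaling. Of 14 other energy genes 10 were tested, and 5 fell in WT IL-23 and 3 in Mdl-1-/- IL-23 ears against WT GFP ears. Pfkm, muscle phosphofructokinase, fell by 1.44 and by 1.08 on the log2 scale in those comparisons (adjusted p = 0.000182 and 0.00447). Slc2a4, the insulin-dependent glucose transporter of muscle and fat, fell by 1.004 and by 1.24 (adjusted p = 0.00369 and 0.00281).

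The embryonic and perinatal heavy chains, which mark developing and regenerating fibres, were called in the same 2 comparisons as Myh2. Myh3, the embryonic chain, had 85, 52 and 66 counts in Mdl-1-/- IL-23 libraries, 24, 29 and 10 in WT IL-23 libraries and 145, 78 and 165 in WT GFP libraries. It rose between the genotypes under IL-23 by a log2 fold change of 1.58 (SE 0.31, adjusted p = 0.00379) and fell in WT IL-23 against WT GFP ears by 2.06 (SE 0.30, adjusted p = 5.78e-05). Myh8, the perinatal chain, had 9, 22 and 28 counts in Mdl-1-/- IL-23 libraries, 1, 5 and 3 in WT IL-23 libraries and 48, 21 and 37 in WT GFP libraries, and rose by 2.55 between the genotypes (SE 0.60, adjusted p = 0.0102). Without any 1 library the adjusted p between the genotypes was at most 0.0181 for Myh3 and 0.0452 for Myh8; limma voom did not call Myh8 there. Mdl-1-/- IL-23 library 3 was the highest of its group for Myh8 and not for Myh3. Of the 14 myogenic and regeneration genes 5 were tested; the 5 fell in WT IL-23 against WT GFP ears, 2 rose between the genotypes and Mef2c, a muscle transcription factor, alone fell in Mdl-1-/- IL-23 against WT GFP ears (log2 -1.14, SE 0.30, adjusted p = 0.0264), which ended without WT IL-23 library 1 or 3 or WT GFP library 1 or 3 (adjusted p up to 0.0799) and in a fit of only the 2 groups.

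Of 12 genes of the dystrophin complex, which ties the fibre to its matrix, 11 were tested, 9 fell in WT IL-23 and 3 in Mdl-1-/- IL-23 ears against WT GFP ears, and Dag1 and Sspn rose between the genotypes under IL-23. Sspn, sarcospan, had 56, 33 and 35 counts in Mdl-1-/- IL-23 libraries, 11, 25 and 13 in WT IL-23 libraries and 165, 92 and 190 in WT GFP libraries. Its log2 fold change between the genotypes was 1.21 (SE 0.34, adjusted p = 0.0244), a call that ended without Mdl-1-/- IL-23 library 1 or WT IL-23 library 1 or 3 (adjusted p up to 0.11) and with limma voom. That of Dag1, dystroglycan, was 0.82 (SE 0.19, adjusted p = 0.0108) and ended without WT IL-23 library 2 (adjusted p = 0.0582). Dmd, dystrophin, fell in WT IL-23 against WT GFP ears by 1.31 on the log2 scale (SE 0.26, adjusted p = 0.000736) and was not called between the genotypes (0.77, adjusted p = 0.0537). Of 11 genes of the neuromuscular junction 3 were tested; Lrp4, the agrin receptor, rose between the genotypes by 1.16 (SE 0.27, adjusted p = 0.00845, at most 0.0426 without any 1 library). Agrn, agrin, fell by 0.75 (SE 0.18, adjusted p = 0.0107), which ended without Mdl-1-/- IL-23 library 1 or WT IL-23 library 2 (adjusted p up to 0.0796), and both genes are also expressed by other cells. Of 14 genes linked to muscle atrophy 12 were tested, with 4 lower and 3 higher in WT IL-23 against WT GFP ears. Fbxo32, a ubiquitin ligase of wasting muscle, fell there by 1.49 on the log2 scale (SE 0.21, adjusted p = 5.12e-05), and Ctsl, a lysosomal protease also made by macrophages and skin cells, rose by 2.25 (SE 0.35, adjusted p = 0.000988).

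Markers of other tissues of the ear also differed between the groups, some lower and some higher. Of all tested genes, 21.7% were called lower and 22.9% higher in WT IL-23 against WT GFP ears. In Mdl-1-/- IL-23 against WT GFP ears 6.93% of all were called lower and 10.2% higher. Of 10 adipocyte markers 9 were tested, and 9 fell in WT IL-23 and 8 in Mdl-1-/- IL-23 ears against WT GFP ears; their summed level was 317 to 427 CPM in Mdl-1-/- IL-23, 285 to 576 CPM in WT IL-23 and 981 to 1597 CPM in WT GFP libraries. Of 11 cartilage markers 7 were tested and 6 fell in each of these comparisons, with sums of 137 to 192, 93.6 to 130 and 294 to 352 CPM in the same order of groups. Of 8 Schwann cell markers 5 were tested, with 4 lower in each and 1 higher in WT IL-23 ears. Of 6 brown fat markers 5 were tested, 3 fell in WT IL-23 and 2 in Mdl-1-/- IL-23 ears, and of 6 fibroblast markers 6 were tested and 2 fell in WT IL-23 ears. Of 6 keratinocyte markers, 3 rose and 2 fell in WT IL-23 against WT GFP ears, and the sum was 23140 to 26620 CPM in Mdl-1-/- IL-23, 16930 to 19610 CPM in WT IL-23 and 10490 to 13670 CPM in WT GFP libraries. Of 5 endothelial markers 3 were tested, and a different 1 fell in each IL-23 group against WT GFP ears, Cdh5 in WT IL-23 and Kdr in Mdl-1-/- IL-23 ears. The part of these shifts in the muscle results was not tested.

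Heart and smooth muscle share several of the listed genes. Of 11 heart markers 2 were tested and Tnnt2, which developing skeletal muscle also makes, fell in WT IL-23 against WT GFP ears; the summed level was 5.14 to 11.7, 6.57 to 13.2 and 13.4 to 23.7 CPM in Mdl-1-/- IL-23, WT IL-23 and WT GFP libraries. Of 10 smooth muscle markers 5 were tested, and Myh11, Mylk and Synpo2 fell in WT IL-23 against WT GFP ears, while Myh11 rose between the genotypes under IL-23. The smooth muscle sum was 25.2 to 47.6, 28.8 to 31.4 and 52.4 to 59.9 CPM in the same groups, and the part of either tissue in the muscle results was not tested.

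In the authors' deposited table for WT IL-23 against WT GFP ears, 35 of the 44 genes were lower at a false discovery rate under 0.05, among them the 19 called here; 4.66% of all 54838 genes, which were not filtered, were lower there and 5.03% higher. In the authors' deposited table for Mdl-1-/- IL-23 against WT GFP ears 7 were lower, among them 4 of the 5 called here, with 1.44% of all genes lower and 1.95% higher. The authors' deposited table for the 2 genotypes under IL-23 has its sign the other way round (WT IL-23 over Mdl-1-/- IL-23); turned to the direction used here, 4 were higher, namely Myh2, Myh1, Mybpc1 and Xirp2, and 0 lower, where 1.48% of all genes were higher and 1.55% lower. In that authors' deposited table Myh2 had a log2 fold change of 2.38 after turning and a false discovery rate of 2.58e-07.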

How the data were processed

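RNA from ears was read by 3′ tag sequencing in 9 libraries, 3 per group. Per the submitters' processing notes, the authors used STAR 2.7.0a, featureCounts and edgeR; the build named there is a human one while the deposited identifiers are those of mouse, so the build used for counting is uncertain. The annotation release is not given in the sources used here, nor is the strand setting. The authors deposited unnormalized counts for Ensembl gene identifiers in 1 table per comparison, and these were joined into 1 matrix of 54838 genes. The deposited tables of the authors' comparisons hold log2 fold changes and p-values with false discovery rates, used here only where named.

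Symbols and positions came from GENCODE M21 on GRCm38, and promoters from RefSeq on GRCm38.p6. The quasi-likelihood test of edgeR 4.0.16 (R 4.3.3) was applied to the counts (filterByExpr with a minimum count of 10 and a minimum total of 15, TMM scaling, robust quasi-likelihood fit over all 9 libraries, 6 residual degrees of freedom), with Benjamini-Hochberg adjustment over 13807 genes and a threshold of 0.05. The test was first tested on simulated data. DESeq2 1.42.0, limma voom (limma 3.58.1), other scalings and filters, a replicate block and leaving out each library were the alternatives. Shares were compared by exact permutation tests (scipy 1.17.1), and Wilson 95% intervals cover counting error only. Same-numbered libraries of different groups correlated at -0.0863 to 0.230 in their deviations, so the numbers were not taken as pairs. Chi-square values between libraries of 1 group were at least 3.19 per gene, so none was taken as a copy of another. A count of 0 allows up to 3 counts.

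The members, gene lists and tests were chosen with earlier results of these data known. Library counts are given for each member called in at least 1 comparison and for the 2 of highest mean CPM in each role, and the other members by range. Of the companion lists, the 2 of highest CPM and the 2 called with the largest change could be named.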

Additional observations from a re-analysis of the deposited data

How the results depend on the processing

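The difference of Myh2 between the genotypes under IL-23 stayed called under every alternative with ordinary library sizes. Of the 19 calls in WT IL-23 against WT GFP ears 9 stayed called under every alternative in which they were tested. Tnnc1 was tested in 8 of the 9 alternatives other than leaving out a library. Of the 5 calls in Mdl-1-/- IL-23 against WT GFP ears 1 stayed called under every alternative. The number called between the genotypes was 1 as reported, 5 without the count filter, 3 with non-robust dispersions, 5 with DESeq2, 3 in a fit of only the 2 groups and 5 with the replicate block, and 1 to 4 without single libraries. Of all genes, these settings, single libraries aside, called 4.51%, 7.56%, 7.66%, 9.47% and 9.03% higher and 5.11%, 9.99%, 9.99%, 10% and 11.2% lower. In WT IL-23 against WT GFP ears the number was 37 in a fit of only the 2 groups (22.2% of all genes lower), 22 with the replicate block (22.1%) and 11 to 35 without single libraries. In Mdl-1-/- IL-23 against WT GFP ears the number was 14 without the count filter (4.16% of all genes lower), 9 with DESeq2 (6.47%) and 17 with limma voom (7.79%). There it was 3 in a fit of only the 2 groups (7.05%), 7 with the replicate block (8.16%) and 1 to 33 without single libraries. Without the count filter the calls of Neb, Trdn and Ttn in WT IL-23 ears ended (adjusted p = 0.105, 0.0603 and 0.0616), as did that of Pvalb in Mdl-1-/- IL-23 ears (0.0771). In the fit of only the 2 groups those of Casq1 and Pvalb in Mdl-1-/- IL-23 ears ended (0.0609 and 0.0730). The block ended the call of Myl3 and Casq1 in WT IL-23 and of Casq1 and Pvalb in Mdl-1-/- IL-23 ears. Why these calls ended was not tested. Over all genes, calls without single libraries numbered 1128 to 2802, 4622 to 6352 and 1340 to 2580 in the comparisons Mdl-1-/- IL-23 against WT IL-23, WT IL-23 against WT GFP and Mdl-1-/- IL-23 against WT GFP, against 2439, 6169 and 2359 with all libraries.

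In the same order, the difference in summed muscle share ran from -0.0192 to 0.1003, -0.369 to -0.239 and -0.320 to -0.183 percentage points without single libraries. That of the slow troponin I share ran from 0.484 to 1.46, -0.822 to -0.360 and -0.120 to 0.856, and with troponin T in its place it was -0.0609 and 1.98 in the first 2 comparisons. With the summed muscle count as library size, 1 gene was called in each comparison, and 0 to 5, 0 to 4 and 0 to 3 without single libraries. The pair Tnnc1 and Tnnc2 gave no usable value, since Tnnc2 had 1 count. The Myh4 share of heavy chain counts differed by -35.3 to -18.9, 6.19 to 7.60 and -28.5 to -12.2, while its share of the summed muscle count differed by -0.818 in WT IL-23 minus WT GFP ears, opposite in sign. The cause of these changes was not tested. Depth limits the 6 members that the filter left out, which rest on 1 to 78 counts.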
